A study of Xenopus laevis with 16 samples.

Results

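The genes described here fold, import, glycosylate and clear proteins of the endoplasmic reticulum (ER), or respond when that work is disturbed. The rule that picks them reads gene symbols and no measured value, though it was written with earlier results of these data known: the families of disulfide isomerases (pdia), translocon and translocon-associated proteins (sec61, sec62, sec63 and ssr), signal recognition particle (srp), signal peptidase (spcs and sec11), derl, edem and stt3, and the single genes hspa5, hsp90b1, dnajb11, dnajc3, calr, canx, ostc, rpn1, rpn2, dad1, ddost, sel1l, herpud1, xbp1, atf4, atf6, ddit3, sesn2, manf, sdf2l1 and creld2. On the Affymetrix Xenopus laevis array they had 94 probe sets of the 32539 tested. These belonged to 71 gene symbols of the 11303 named on the array, or 52 genes when the .L and .S copies of the allotetraploid genome are joined.

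The tissue was the animal cap, the ectoderm explanted from the top of the blastula, which forms epidermis when cultured alone. Injection took place at 2 to 4 cells, with Pax3, or with Pax3 and Zic1, transcription factors of the neural plate border, each fused to GR so that dexamethasone switches it on. Embryos grew at 15 °C until stage 9, and caps were lysed when whole embryos of the same age had reached stage 11.5 to 12. There were 5 groups of 3 biological samples. Control caps were not injected and received neither agent. Pax3 caps, and Pax3/Zic1 caps with both factors, received dexamethasone for 2 h from stage 10.5. The treatment temperature was 23 °C in all 5 groups, control caps included. The other 2 groups carried the same injections and had cycloheximide, which blocks translation, at 0.1 mg/ml. It was given from stage 10, for 30 min before dexamethasone and on through it. No group had cycloheximide, dexamethasone or an injection alone. The cycloheximide differences within a factor set are thus between injected caps in dexamethasone. Where caps with the drug are set against control caps, the drug is mixed with injection and dexamethasone. The labels do not say how many caps or clutches made up a sample.

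Secreted and membrane proteins enter the ER while they are made. The signal recognition particle binds the signal sequence of the growing chain and carries the ribosome to the Sec61 channel, signal peptidase then removes the signal, and oligosaccharyltransferase adds sugar chains. In the lumen the chain is folded by chaperones of the heat shock families, by the calcium-binding lectins calreticulin and calnexin and by disulfide isomerases, and chains that fail to fold are returned to the cytosol for degradation. When unfolded chains build up, the sensors of the unfolded protein response raise this whole machinery through the factors Xbp1 and Atf6, and slow translation while raising Atf4 and its target Ddit3. Gland cells of the embryonic epidermis, the cement gland among them, secrete heavily.

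The values are log2 levels, one per probe set and sample, and a difference is cycloheximide minus none unless stated. The mean over the 94 probe sets was 8.06 to 8.13 in the control samples, 8.03 to 8.15 in Pax3 caps and 7.88 to 8.28 in Pax3/Zic1 caps. With cycloheximide it was 7.47 to 7.63 in Pax3 caps and 7.44 to 7.61 in Pax3/Zic1 caps, below every sample without the drug. The genes are well expressed: their mean levels ran from 2.65 to 11.09 with a median of 8.46, against 4.90 over all probe sets, and pdia2.L alone lay under the arrays' lower quartile of 2.60 to 2.78. All probe sets of the ER genes were kept, as no filter on level was used. In bulk tissue, fewer cells of a type and less RNA per cell cannot be told apart.

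Some values of the arrays themselves went with the drug. The bacterial spike-in controls bioB, bioC and bioD, 21 probe sets, were 0.21 lower on average with cycloheximide, at 6.75 to 6.99 against 7.0 to 7.28 in all samples without it. Actin read 0.58 to 0.84 higher at the 3′ end than in the middle of the transcript with the drug and 0.34 to 0.59 without it, a measure of RNA integrity. The actin ranges overlapped by little. Those of the like measure for gapdh, 3′ minus 5′ end, overlapped widely, at 0.65 to 1.03 with the drug and 0.57 to 0.94 without it. Replicate 3 of the Pax3/Zic1 caps stood apart, with a correlation of 0.43 to 0.51 to the other samples of its number where pairs of samples with one number had a median of 0.73. Of the 7 probe sets of pax3, 3 were more than 1 log2 unit above control in all 4 injected groups, as pax3.S (Xl2.49495.3.S1_x_at) at 1.94 in control caps and 5.91 to 6.90 in the others, and 4 were not. The probe sets of zic1.S went different ways when Zic1 was injected: Xl2.1796.1.S1_at was at 8.15 in Pax3 caps and 9.29 in Pax3/Zic1 caps, and Xl2.1796.1.S2_at at 9.13 and 8.56. Which of these probe sets the injected RNA can bind was not tested. The number of arrays limits the precision.

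**Figure D1:**
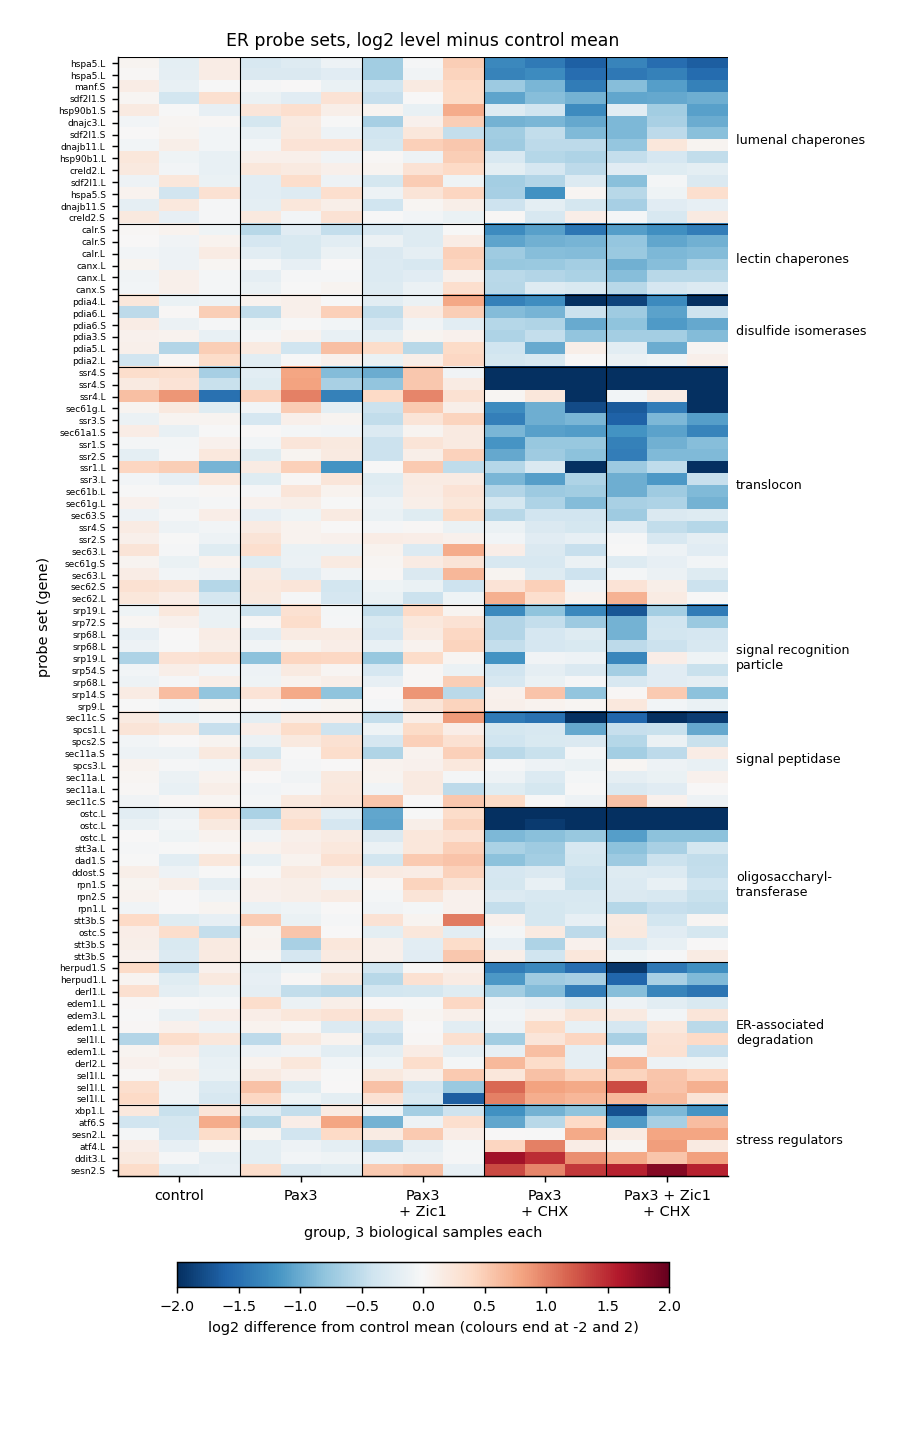
Each row is one of the 94 probe sets of the ER genes, grouped by role and ordered within a role by the cycloheximide difference, and each column is one of the 15 biological samples. Colour gives the log2 level minus the mean of the 3 control samples of that probe set, with colours ending at -2 and 2. The 9 columns without cycloheximide are pale in most rows, and the 6 with it are blue in most rows of the folding and import roles and red in rows of sesn2.S, ddit3.L, atf4.L and sel1l.L.

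Cycloheximide lowered much of the machinery that imports, glycosylates and folds ER proteins, while 3 of the 6 probe sets of stress regulators rose and 1 fell. Averaged over both factor sets, 46 of the 94 probe sets fell, 4 rose and 44 did not pass, where 3.53% of all probe sets fell and 3.29% rose (limma, Benjamini-Hochberg adjusted p under 0.05 over the whole table). The 4.26% of ER probe sets that rose is thus near the share of all probe sets. The median difference of the ER genes was -0.49 on the log2 scale, against -0.04 over all probe sets. By gene symbol, 36 of 71 had a probe set that fell, 33 had every probe set fall, and 4 had one that rose: sesn2.S, ddit3.L, sel1l.L and atf4.L. As the ER genes are higher than most, the share was also taken over the 7803 probe sets above the ER genes' own lower quartile of 6.89, where 7.09% fell.

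Within each replicate number the caps with cycloheximide can be set against the caps without it, which gives 6 differences for each probe set. All 6 were below 0 for 67 of the 94, as they were for 17.6% of all probe sets. In 44 of the 94 every one of the 6 samples with the drug lay below all 9 without it, control caps included. This held for 2.29% of all probe sets. With the replicate number as a block in the fit, 66 fell and 6 rose, beside 15.6% of all probe sets falling. With that block 4387 of all 32539 probe sets rose, a larger share than that of the ER genes. Without replicate 3 of the Pax3/Zic1 caps, 43 fell and 3 rose. Scaled to the spike-in controls, a setting added after the data were seen, the median of all probe sets moved from -0.04 to 0.17 and that of the ER genes to -0.28, and 32 fell and 7 rose. The share of all probe sets that fell or rose under that scaling is not given here. That scaling moves every probe set of an array by the same amount, so it cannot change the distance between both medians, and 12 probe sets that had not passed turned from below to above 0.

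**Figure D2:**
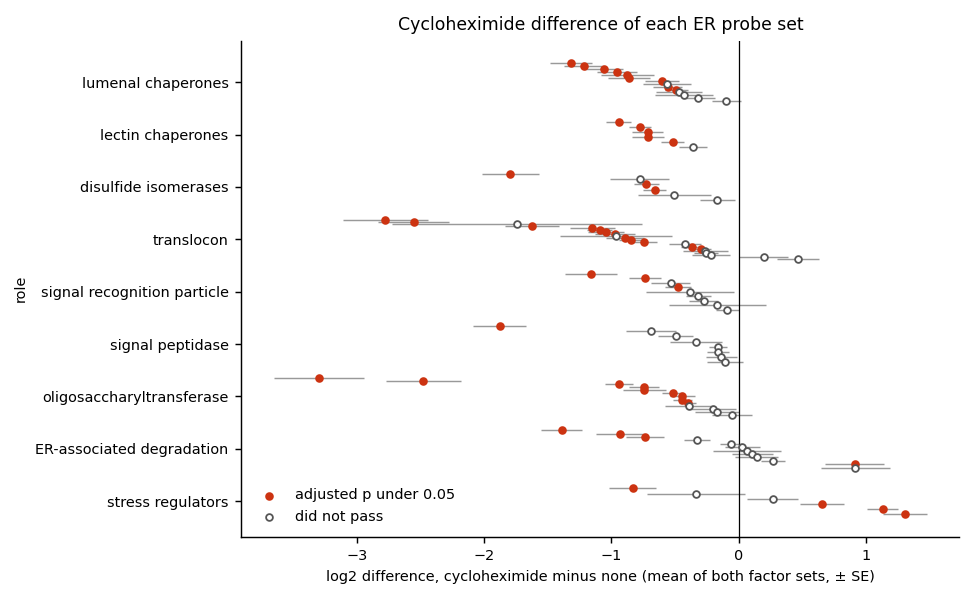
Points are the 94 probe sets, placed by role, with the log2 difference between caps with and without cycloheximide (mean of both factor sets) on the horizontal axis and bars of ± 1 standard error. Filled points passed an adjusted p under 0.05. The roles of import, glycosylation and folding lie left of 0 apart from both copies of sec62, and degradation and stress regulators lie on both sides.

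Of the 14 probe sets of lumenal chaperones 9 fell, none rose and 5 did not pass, with a median of -0.58. hspa5 encodes BiP, the Hsp70 chaperone that binds unfolded chains and holds the stress sensors inactive. The hspa5.L level (Xl2.3204.1.S1_at) was 9.77, 9.56 and 9.89 in replicates 1 to 3 of the control caps, 9.45, 9.45 and 9.52 in Pax3 caps and 9.04, 9.66 and 10.18 in Pax3/Zic1 caps. Under the drug it read 8.40, 8.48 and 8.22 in Pax3 caps and 8.31, 8.39 and 8.20 in Pax3/Zic1 caps. The groups with and without the drug did not overlap. The fall of hspa5.L was 1.22 ± 0.15 on the log2 scale (SE, n = 3 per group), a 2.32-fold lower level (limma adjusted p = 0.000752), and its other probe set, of the same target and with the ending _x_at that marks probes shared with other transcripts, fell by 1.32. The copy hspa5.S was at -0.43 and did not pass (limma adjusted p = 0.311, 95% interval -0.92 to 0.07), but did with the replicate block (adjusted p = 0.0394).

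manf.S, which encodes a small secreted stress protein of the ER, fell by 1.06. Its levels were 8.73 to 9.52 over the 9 samples without cycloheximide and 7.73 to 8.40 over the 6 with it, with no overlap. hsp90b1 encodes Grp94, the Hsp90 of the lumen, and both copies fell, hsp90b1.L by 0.56 and hsp90b1.S by 0.87. The partners of BiP were dnajc3.L, which fell by 0.86, and dnajb11.L and dnajb11.S at -0.56 and -0.32, which did not pass (adjusted p = 0.0973 and 0.175) except with the replicate block (0.00513 and 0.00711). Both probe sets of sdf2l1.S, a part of the BiP and DnaJ complex, fell, by 0.96 and 0.60, and sdf2l1.L was at -0.47 (adjusted p = 0.148, with the block 0.0108). creld2.L, an ER protein induced by stress, fell by 0.49, and creld2.S was at -0.10 (adjusted p = 0.691). Scaled to the spike-ins, 5 of the 14 fell, and hsp90b1.L, hsp90b1.S, creld2.L and 1 of the sdf2l1.S probe sets no longer passed (adjusted p = 0.0587, 0.0626, 0.0998 and 0.0912). Leaving out any sample of Pax3 caps, or replicate 3 of Pax3/Zic1 caps, or replicate 2 or 3 of those with the drug, also ended the call of hsp90b1.S, with differences of -0.90 to -0.74.

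Of the lectin chaperones, which hold glycoproteins until they fold, 5 of 6 probe sets fell, with a median of -0.72. Calreticulin is the soluble one. The calr.S level (Xl2.20555.2.A1_a_at) was 10.57, 10.49 and 10.65 in control caps, 10.24, 10.27 and 10.36 in Pax3 caps and 10.45, 10.31 and 10.72 in Pax3/Zic1 caps. With the drug, the level was 9.52, 9.61 and 9.63 in Pax3 caps and 9.80, 9.53 and 9.61 in Pax3/Zic1 caps. Each sample with the drug was thus lower than each without. calr.S fell by 0.77 ± 0.09 (1.71-fold, limma adjusted p = 0.000307), its other probe set by 0.94 and calr.L by 0.72. Of calnexin, the membrane-bound lectin, both probe sets of canx.L fell, by 0.71 and 0.52, and canx.S was at -0.36 (adjusted p = 0.0713, with the replicate block 0.00666).

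Disulfide isomerases form and reshuffle the bonds between cysteines, and 3 of 6 fell, beside 3.53% of all probe sets. With the replicate block 5 of 6 fell, beside 15.6%. The strongest difference was that of pdia4.L, an isomerase that works with BiP. Its level was 9.65, 9.29 and 9.33 in control caps, 9.49, 9.53 and 9.41 in Pax3 caps and 9.21, 9.31 and 10.20 in Pax3/Zic1 caps. Cycloheximide samples were at 8.08, 8.18 and 7.12 in Pax3 caps and 7.57, 8.15 and 7.29 in Pax3/Zic1 caps, a full log2 unit or more below the lowest sample without the drug. pdia4.L fell by 1.79 ± 0.23 (3.47-fold, limma adjusted p = 0.000687). pdia3.S, the isomerase that pairs with calreticulin and calnexin, fell by 0.66, from 9.71 to 9.98 without the drug to 9.02 to 9.42 with it. pdia6.S fell by 0.73, and pdia6.L, at -0.78, missed the threshold (adjusted p = 0.067, with the block 0.00105), as did pdia5.L at -0.51 (0.344, with the block 0.000446). pdia2.L was at -0.17 from a level near the floor.

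**Figure D3:**
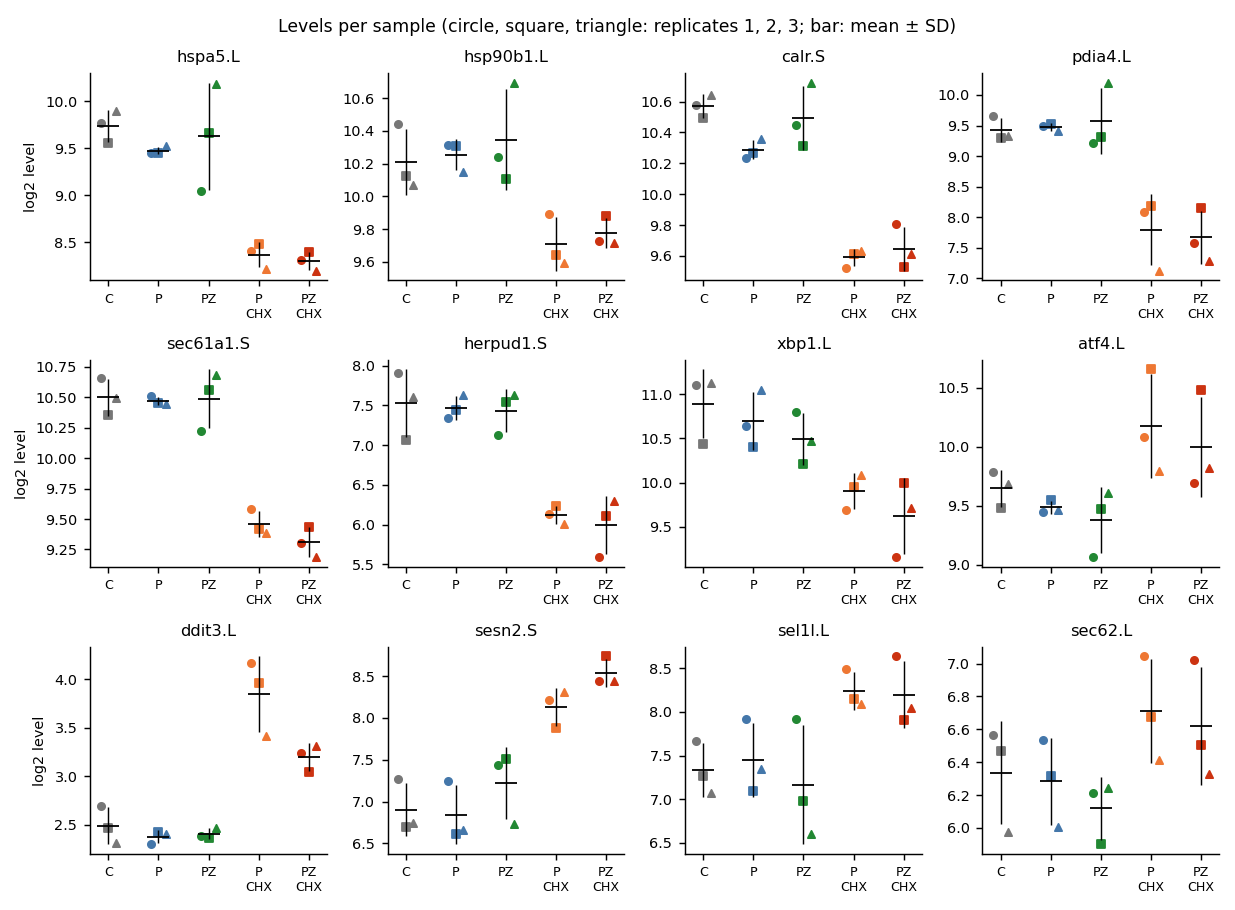
Log2 levels of 12 probe sets per sample in control caps (C), Pax3 caps (P) and Pax3/Zic1 caps (PZ), without and with cycloheximide (CHX), with circles, squares and triangles for replicates 1, 2 and 3 and bars for the mean ± SD. Where a gene has several probe sets the one with the highest mean is drawn, except hspa5.L (Xl2.3204.1.S1_at) and sel1l.L (Xl2.10407.1.A1_at), and axes do not start at 0. hspa5.L to xbp1.L drop with the drug, ddit3.L and sesn2.S climb with no overlap, and atf4.L, sel1l.L and sec62.L overlap.

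In the translocon and its associated complex 12 of 20 probe sets fell and none rose, with a median of -0.87. sec61a1 encodes the channel itself. The sec61a1.S level was 10.65, 10.35 and 10.50 in control caps, 10.51, 10.45 and 10.45 in Pax3 caps and 10.22, 10.56 and 10.68 in Pax3/Zic1 caps. In the drug groups it was 9.59, 9.41 and 9.39 in Pax3 caps and 9.31, 9.44 and 9.19 in Pax3/Zic1 caps. The gap between both sets of samples was wide beside the spread within a group. sec61a1.S fell by 1.09 ± 0.09 (2.13-fold, limma adjusted p = 8.22e-05, the lowest of the 94). The small channel subunits followed: sec61b.L fell by 0.84, from 11.15 to 11.64 without the drug to 10.38 to 10.78 with it, and sec61g.L fell by 0.74 and 1.62 at its 2 probe sets. sec61g.S, at a level of 2.60 to 3.01 by group, did not pass (-0.26, adjusted p = 0.118, with the block 0.0132).

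The ssr genes encode the translocon-associated protein (TRAP) complex, which helps chains enter the channel. ssr1.S fell by 1.04, ssr2.S by 0.97 and 0.29 at its 2 probe sets, ssr3.L by 0.89 and ssr3.S by 1.15. The 3 probe sets of ssr4.S all fell but not by the same amount, 0.36 for Xl2.24914.1.S1_at at a level near 10.4 and 2.55 and 2.78 for the pair Xl2.46964.1.A1_at and Xl2.46964.2.S1_at. The level of Xl2.46964.1.A1_at was 5.64, 5.73 and 5.02 in control caps, 5.22, 6.27 and 4.81 in Pax3 caps and 4.67, 6.01 and 5.62 in Pax3/Zic1 caps. With cycloheximide it was 2.76, 3.21 and 2.66 in Pax3 caps and 2.96, 3.15 and 2.56 in Pax3/Zic1 caps, close to the arrays' lower quartile. The smallest falls here, those of ssr4.S at Xl2.24914.1.S1_at and ssr2.S at Xl2.761.1.S1_s_at, no longer passed after quantile normalization (adjusted p = 0.0852 and 0.191) or spike-in scaling (0.417 and 0.668).

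ssr4.L and ssr1.L split by replicate number. ssr4.L was at 9.58, 9.86 and 7.49 in control caps and 9.44, 9.98 and 7.62 in Pax3 caps, and at 9.38, 9.96 and 9.28 in Pax3/Zic1 caps, whose replicate 3 is the sample that stood apart. Under the drug it read 9.01, 9.19 and 4.74 in Pax3 caps and 8.92, 9.14 and 4.21 in Pax3/Zic1 caps. Replicate 3 was the lowest in all 5 groups for both genes, by little for ssr4.L in Pax3/Zic1 caps, and the pair difference of ssr4.L in replicates 3 of those caps was -5.07, against -0.46 and -0.82 in replicates 1 and 2. Their differences of -1.74 ± 0.98 and -0.96 ± 0.44 did not pass (limma adjusted p = 0.339 and 0.226) and did with the replicate block (0.0244 and 0.000211). Of the proteins of the other import route, for chains that enter after they are complete, no probe set passed. sec62.L was at 0.46 (adjusted p = 0.117) and sec62.S at 0.20 (0.613), the only translocon probe sets above 0, and sec63.L and sec63.S were between -0.42 and -0.22 without passing. sec62.L rose with the replicate block (adjusted p = 0.00648) and with spike-in scaling (0.0338), and sec63.S fell with the block (0.00405).

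Of the signal recognition particle 3 of 9 probe sets fell, with a median of -0.38, beside 3.53% of all probe sets. With the replicate block 7 of 9 fell, beside 15.6%. srp72.S, the partner of srp68 in the particle, fell by 0.74 ± 0.13 (limma adjusted p = 0.00542), from 9.12 to 9.76 without cycloheximide to 8.47 to 9.02 with it. srp19.L fell by 1.16 at Xl2.2367.2.S1_at, whereas its other probe set was at -0.38 and did not pass (adjusted p = 0.582, with the block 0.00436). 1 of the 3 probe sets of srp68.L fell, by 0.48, and no longer did with spike-in scaling (adjusted p = 0.113). The others were at -0.53 and -0.28 without passing (limma adjusted p = 0.0572 and 0.171). All 3 were lower with the drug in all 6 pairs. The part of the particle that slows the ribosome, srp9.L and srp14.S, was at -0.09 and -0.17 (adjusted p = 0.628 and 0.853). srp14.S, like ssr4.L, followed the replicate number, at 8.83 to 9.09 in replicates 1, 9.35 to 9.70 in replicates 2 and 8.0 to 8.28 in replicates 3.

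Of signal peptidase 1 of 8 probe sets fell, with a median of -0.25, beside 3.53% of all probe sets. With the replicate block 4 of 8 fell, beside 15.6%. The one was sec11c.S, a catalytic subunit, at Xl2.54513.1.S1_at. Its level was 5.13 to 6.46 over the 9 samples without the drug and 3.37 to 4.19 over the 6 with it, a fall of 1.88 ± 0.21 (3.67-fold, limma adjusted p = 0.000307). The other sec11c.S probe set stayed between 3.50 and 3.87 in the group means, at -0.11 (adjusted p = 0.714). spcs1.L and spcs2.S, at -0.69 and -0.49, lay at the threshold (adjusted p = 0.0563 and 0.0531, with the block 0.000938 and 0.0038). spcs3.L was at -0.16 (0.186).

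Oligosaccharyltransferase hands a preformed sugar tree to asparagines of the chain, and 9 of its 13 probe sets fell, with a median of -0.44. The ostc.L gene, whose product links the enzyme to the channel, held the probe set with the lowest fitted difference of the 94. At Xl2.53498.1.A1_at its level was 6.35, 6.45 and 6.89 in control caps, 5.94, 6.82 and 6.35 in Pax3 caps and 5.53, 6.56 and 6.93 in Pax3/Zic1 caps. With the drug, the level was 2.77, 4.17 and 2.94 in Pax3 caps and 2.13, 3.85 and 2.47 in Pax3/Zic1 caps. Replicates 2 were the highest with the drug, yet still below every sample without it. The difference was -3.30 ± 0.35 (limma adjusted p = 0.000263). As 4 of the 6 samples with the drug were at 2.13 to 2.94, at or near the arrays' lower quartile, its size is limited by the floor and no fold is given. It was accompanied by -2.48 at Xl2.53498.2.S1_at and -0.94 at Xl2.29128.1.S1_at, which has a level near 9 and no overlap between both sets of samples either. Xl2.53498.2.S1_at was at 2.55 to 4.11 with the drug, in part near that floor. The copy ostc.S was at -0.20 (adjusted p = 0.581).

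stt3a.L, the catalytic subunit that acts on chains still entering the channel, fell by 0.74 ± 0.12 (limma adjusted p = 0.00263), from 10.07 to 10.65 without the drug to 9.36 to 9.86 with it. The 3 probe sets of stt3b.S, the subunit that acts on sites left over, were at -0.39, -0.17 and -0.05 and did not pass (adjusted p = 0.28, 0.637 and 0.895, also not with the block). The difference between both subunits was not tested, since probe sets are not compared in level. The accessory subunits fell too: dad1.S by 0.74, ddost.S by 0.52, rpn1.L and rpn1.S by 0.40 and 0.44, and rpn2.S by 0.44. With spike-in scaling these 5 no longer passed (adjusted p = 0.0529 to 0.182).

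Degradation genes did not all move together: of 12 probe sets 3 fell (25%) and 1 rose (8.33%), and their median was 0.05. Beside them, 3.53% of all probe sets fell and 3.29% rose. The 12 hold 4 probe sets of sel1l.L and 3 of edem1.L. With 1 probe set per gene, 3 of 7 fell, none rose and the median was -0.06. herpud1 encodes a membrane protein that gathers the degradation complex. The herpud1.S level was 7.90, 7.06 and 7.61 in control caps, 7.34, 7.44 and 7.63 in Pax3 caps and 7.12, 7.54 and 7.63 in Pax3/Zic1 caps. Cycloheximide samples were at 6.13, 6.23 and 6.0 in Pax3 caps and 5.59, 6.10 and 6.30 in Pax3/Zic1 caps, with no overlap. herpud1.S fell by 1.39 ± 0.16 (2.62-fold, limma adjusted p = 0.000426) and herpud1.L by 0.93. derl1.L, a channel candidate for the way out, fell by 0.74 (0.0125, or 0.0745 with spike-in scaling), and its relative derl2.L was at 0.14 (0.687).

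sel1l, the scaffold of the Hrd1 ubiquitin ligase, went the other way at 1 of the 4 probe sets of sel1l.L. At Xl2.10407.1.A1_at its level was 7.67, 7.27 and 7.07 in control caps, 7.92, 7.09 and 7.35 in Pax3 caps and 7.92, 6.97 and 6.60 in Pax3/Zic1 caps. In the drug groups it was 8.49, 8.14 and 8.09 in Pax3 caps and 8.64, 7.91 and 8.04 in Pax3/Zic1 caps, so that the sets of samples touched. The rise was 0.91 ± 0.23 (1.88-fold, limma adjusted p = 0.036), and leaving out 1 of 10 of the 15 samples in turn ended the call, with differences of 0.77 to 0.95. The other probe sets were at 0.92, 0.27 and 0.06 (adjusted p = 0.0665, 0.124 and 0.927), and the first of them rose with the replicate block (0.00297) and both of the first with spike-in scaling (0.0382 and 0.0097). The mannosidase-like edem1.L and edem3.L, which mark glycoproteins for removal, were between -0.33 and 0.11 at 4 probe sets, none of which passed, though the lowest of edem1.L did with the block (0.0238) and after median centring (0.0479). That edem1.L probe set was at a level of 2.91 to 3.25 by group, near the arrays' floor.

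The regulators split. xbp1 encodes the factor made by the Ire1 branch, and the probe set of xbp1.L does not separate its spliced from its unspliced form as far as the files tell. The xbp1.L level was 11.10, 10.44 and 11.13 in control caps, 10.64, 10.41 and 11.05 in Pax3 caps and 10.80, 10.22 and 10.47 in Pax3/Zic1 caps. With cycloheximide it was 9.69, 9.95 and 10.08 in Pax3 caps and 9.15, 9.99 and 9.71 in Pax3/Zic1 caps. All samples with the drug were below all others, by a narrow gap. xbp1.L fell by 0.83 ± 0.18 (1.78-fold, limma adjusted p = 0.0192). The call was lost with spike-in scaling (-0.62, adjusted p = 0.069), without replicate 3 of Pax3 caps (-0.75) and without replicate 1 of Pax3 caps with cycloheximide (-0.78). atf6.S, the membrane-bound factor cut in the Golgi, was at -0.33 ± 0.39 with a level of 3.52 to 4.04 by group, and did not pass (0.681, with the block 0.0446).

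atf4 encodes the factor translated when initiation slows. The atf4.L level was 9.79, 9.48 and 9.68 in control caps, 9.45, 9.55 and 9.46 in Pax3 caps and 9.06, 9.47 and 9.61 in Pax3/Zic1 caps. Under the drug it read 10.08, 10.66 and 9.79 in Pax3 caps and 9.69, 10.48 and 9.82 in Pax3/Zic1 caps, highest in replicates 2 of both groups. One of the 6, at 9.69, lay within the range of the control caps, and the other 5 lay above it, 2 of them narrowly. The rise was 0.65 ± 0.17 (1.57-fold, limma adjusted p = 0.0396). It was close to the threshold: leaving out any one of 12 of the 15 samples ended the call with differences of 0.53 to 0.70, and median centring did so too (0.61, adjusted p = 0.057), whereas the replicate block gave 0.00741.

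ddit3 encodes Chop, a target of Atf4 that promotes cell death. The ddit3.L level was 2.69, 2.46 and 2.31 in control caps, 2.30, 2.43 and 2.41 in Pax3 caps and 2.38, 2.37 and 2.47 in Pax3/Zic1 caps, near or under the arrays' lower quartile. With the drug, the level was 4.16, 3.96 and 3.41 in Pax3 caps and 3.24, 3.04 and 3.31 in Pax3/Zic1 caps. Every sample with the drug was higher, while staying below the array medians of 4.82 to 4.97. ddit3.L rose by 1.13 ± 0.12 (limma adjusted p = 0.000272), and as its level without the drug was at the floor, no fold is given. sesn2 encodes a stress-induced regulator of growth signalling, and sesn2.S was at 6.61 to 7.51 over the 9 samples without cycloheximide. It was at 8.22, 7.88 and 8.31 in Pax3 caps with the drug and 8.45, 8.74 and 8.44 in Pax3/Zic1 caps with it. sesn2.S rose by 1.30 ± 0.17 (2.47-fold, adjusted p = 0.00101), whereas sesn2.L, at a level of 10.0 to 10.6 by group, was at 0.27 and did not pass (adjusted p = 0.486).

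Many genes of this set are held as an .L and an .S copy, and 19 had a probe set for each. Taking the probe set with the highest mean for each copy, both were below 0 in 17 of the 19. Both copies fell in 5 (calr, herpud1, hsp90b1, rpn1 and ssr3), 1 of them in 9 and neither in 5. Probes may also bind the other copy, which was not tested. Among the 16 genes with several probe sets, 39 in all, the differences of 3 genes lay more than 1 log2 unit apart: ssr4.S, ostc.L and sec11c.S, described above. In each of the 3 the probe set with the lower difference was at a level near 5 to 7 without the drug, and that of ssr4.S and ostc.L with the smallest fall was at a level of 9 to 11.

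The drug comparison was also made within each factor set. The factor sets share no samples but are not independent, as samples of one replicate number deviated together and a single estimate of the spread served both. In Pax3 caps 16 of the 94 fell and 2 rose, beside 0.366% and 0.504% of all probe sets, and with the replicate block 53 fell, beside 5.02%. These counts depended on single samples, as leaving out replicate 1, 2 or 3 of Pax3 caps left 8, 3 or 4 calls, and leaving out replicate 1, 2 or 3 of Pax3 caps with cycloheximide left 2, 7 or 3. In Pax3/Zic1 caps 28 fell and 2 rose, beside 0.747% and 0.842%, and with the block 57 fell, beside 8.45%. Here 15 calls were left without replicate 2 of Pax3/Zic1 caps, 14 without their replicate 3, which stood apart, and 13 without replicate 3 of those with cycloheximide. The medians of the 94 were -0.51 in Pax3 caps and -0.52 in Pax3/Zic1 caps, and those of all probe sets -0.03 and -0.04.

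The sizes were near each other in both factor sets. hspa5.L was at -1.11 and -1.33, pdia4.L at -1.68 and -1.91, sec61a1.S at -1.01 and -1.18, herpud1.S at -1.35 and -1.44 and sesn2.S at 1.29 and 1.32, with Pax3 named first and both factors second. All of these passed in both. No probe set of the 94 passed the test that its cycloheximide difference differs between the factor sets, beside 0% of all probe sets. Only ddit3.L had an unadjusted p under 0.05 in that test. It was at 1.47 in Pax3 caps and 0.79 in Pax3/Zic1 caps, a difference of -0.68 (95% interval -1.21 to -0.15, unadjusted p = 0.0165 by limma, adjusted p = 1). For 69 of the 94 the 95% interval of the difference lay within 1 log2 unit of 0.

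**Figure D4:**
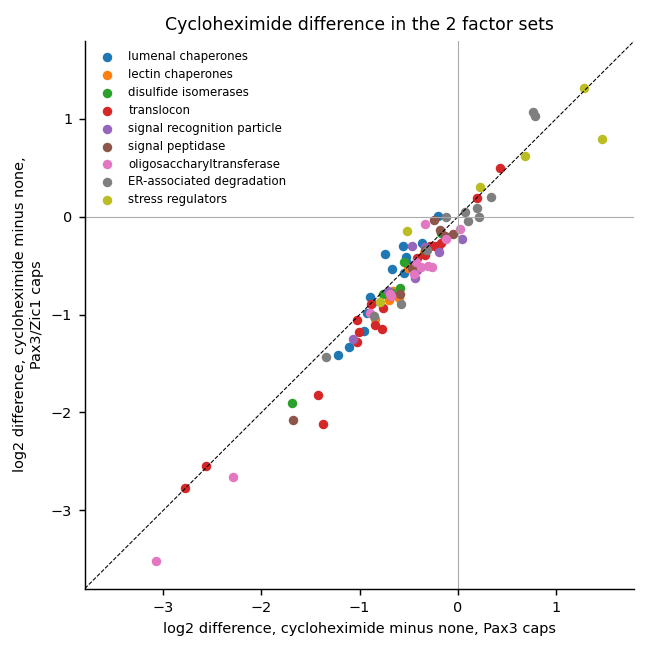
Each point is one of the 94 probe sets, coloured by role, with its log2 cycloheximide difference in Pax3 caps on the horizontal axis and with both factors on the vertical axis; the dashed line marks equal differences. The points lie along the line, from ostc.L at -3.07 and -3.52 to sesn2.S at 1.29 and 1.32, with ddit3.L below it at 1.47 and 0.79.

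Injected caps without cycloheximide had no call on these genes against control caps. These comparisons mix the factors with injection and dexamethasone, and few of all probe sets passed in them. Pax3 caps against control gave 0 of 94, beside 0.286% of all probe sets, with 2 at an unadjusted p under 0.05. Both of those were calr.S, at -0.41 (95% interval -0.71 to -0.12) and -0.28 (-0.55 to -0.02), and neither passed with the replicate block (adjusted p = 0.162 and 0.316). The 94 differences ran from -0.41 to 0.24, and 86 of the 95% intervals lay within 1 log2 unit of 0. Pax3/Zic1 caps against control gave 0 calls beside 0.492%, and none had an unadjusted p under 0.05. Their differences ran from -0.56 at a sel1l.L probe set to 0.56 at ssr4.L, and 84 of the intervals lay within 1 log2 unit.

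Adding Zic1 to Pax3 also gave 0 calls of 94. Without cycloheximide 0.0184% of all probe sets passed, none of the 94 had an unadjusted p under 0.05, and the differences ran from -0.59 to 0.52. With cycloheximide 0.0338% passed, and ddit3.L had the lowest p of the 94, at 3.20 with both factors and 3.85 with Pax3, a difference of -0.65 (95% interval -1.02 to -0.27, limma adjusted p = 0.472, with the replicate block 0.117). In all 4 of these comparisons the replicate block also gave 0 calls.

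The caps with cycloheximide were also set against control caps. These comparisons share the control samples with each other, and they mix the drug with injection and dexamethasone. In Pax3 caps with the drug 27 of 94 were lower and 2 higher than control, beside 1.24% and 1.28% of all probe sets, and 48 were lower with the replicate block, beside 6.99%. Leaving out replicate 1, 2 or 3 of the control caps left 14, 17 or 12 calls, and leaving out replicate 1, 2 or 3 of Pax3 caps with cycloheximide left 16, 18 or 12. In Pax3/Zic1 caps with the drug 33 were lower and 2 higher, beside 2.35% and 2.21%, and 50 were lower with the block, beside 9.78%. hspa5.L was at -1.37 and -1.44 against control, calr.S (Xl2.20555.1.S1_at) at -1.26 and -1.23 and ddit3.L at 1.36 and 0.71, with Pax3 named first and both factors second, and each passed in both. xbp1.L was at -0.98, which did not pass in Pax3 caps (limma adjusted p = 0.0766, with the block 0.0189), and at -1.27, which did in Pax3/Zic1 caps (0.0154).

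Other genes of the same organelle were counted as a list. Of 89 probe sets of ER and ER-to-Golgi genes outside the set, 27 fell and none rose, with a median of -0.32, and 51 fell and 2 rose with the replicate block. Of all probe sets 3.53% fell, and 15.6% with the block. dnajb9.L, a BiP partner that quiets Ire1, fell by 1.75 ± 0.26 (limma adjusted p = 0.00189), and tram1.L, a membrane protein beside the channel, by 1.40. selenos.L, which recruits the p97 ATPase for degradation, fell by 1.16, and p4hb.L, the founding disulfide isomerase, by 1.15 and 0.70 at its 2 probe sets. Of 48 probe sets of cytosolic chaperones, 2 fell and none rose, both of cct5.S, a subunit of the ring that folds actin and tubulin, with a median of -0.21, and 20 fell and 3 rose with the replicate block. Their 4.17% falling is near the 3.53% of all probe sets in the fit without the block. With the block, 20 of 48 is a larger share than the 15.6% of all probe sets. In all 6 pairs 24 of the 48 were lower with the drug, beside 17.6% of all probe sets. The difference between the lists was not tested.

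Of 25 probe sets of Atf4 targets and other integrated stress response genes, 3 rose (12%) and 1 fell (4%), with a median of 0.01. Beside them, 3.29% of all probe sets rose and 3.53% fell, and the difference in share was not tested. ddit4.S, an inhibitor of growth signalling, rose by 1.49 ± 0.26 (2.81-fold, limma adjusted p = 0.00581), atf3.L, an early stress factor, by 1.06 (0.0425), and cebpg.L, a dimer partner of Atf4, by 0.87 (0.0198). The gene that fell was sars1.L, a serine tRNA ligase, by 0.48. With the replicate block 5 rose and 5 fell, where 4387 of all 32539 probe sets rose and 15.6% fell. Neither count with the block is far from the share of all probe sets. Among those that rose was psat1.L of serine synthesis, at 1.25 ± 0.71 without passing (limma adjusted p = 0.347) and passing with the block (9.6e-05).

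**Figure D5:**
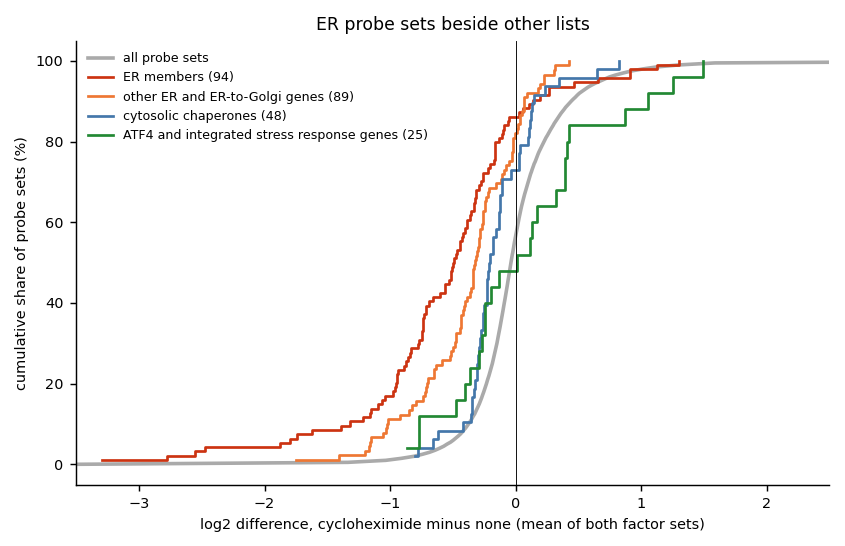
Cumulative share of probe sets, in percent, against the log2 cycloheximide difference (mean of both factor sets) for the 94 probe sets of the ER genes, the other lists with their numbers of probe sets, and all probe sets. The curve of the ER genes lies left of that of all probe sets below 0 and for some way above it, with medians of -0.49 and -0.04. At the median the other ER genes (-0.32) and cytosolic chaperones (-0.21) lie between. The stress response list (0.01) crosses the curve of all probe sets.

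Markers of cell types that the caps could hold were measured on the same arrays. Ectoderm was present, at a mean of 8.04 to 8.29 over 19 probe sets of keratin, epcam, cdh1 and other genes in control caps, and with cycloheximide 2 of these rose and 4 fell. All 4 were keratins, structural genes of the epidermis, as krt70.L at -2.88, krt12.4.S at -2.31, krt12.4.L at -2.03 and krt70.S at -0.60, and those that rose were both copies of grhl3, an epidermal transcription factor, at 1.60 and 1.40. Cement gland markers also fell with the drug, at 5 of 6 probe sets, with a median of -2.19. Their mean level over probe sets was 6.26 to 6.65 in control caps, 5.10 to 6.25 in injected caps without the drug and 3.04 to 3.95 with it. This mean was thus already below control in injected caps without the drug, but not every marker followed it. Without the drug, agr2.L averaged 5.45 under Pax3 and 4.57 under both factors, which is above its control mean of 4.09. The markers that fell with the drug were ag1.L, ag1.S, agr2.L and agr2.S, which themselves encode secretory proteins of the disulfide isomerase family. pitx1.L, a gland transcription factor, stayed between 2.37 and 2.74, near the floor. Its mean in injected caps without the drug was not below control either. The part of the cement gland and keratin changes in the fall of the ER genes was not tested, nor was that of the spike-in and actin differences. Markers of goblet cells (itln1 and foxa1, 4 probe sets), multiciliated cells (5) and organizer (3) had 0 calls with the drug, neural plate 3 of 11 higher, mesoderm 2 of 10 higher, ionocytes 1 of 9 higher, and endoderm 3 higher and 1 lower of 15. The neural plate calls were 1 probe set each of sox2.L, sox3.S and zic1.S, and Zic1 was itself injected in the Pax3/Zic1 caps. The goblet marker itln1.L was at -1.92 (limma adjusted p = 0.129) and foxa1 probe sets were at 0.58, 0.55 and -0.85, none passing. xbp1, also on the list of goblet markers, is left out of that count, and xbp1.L fell, as given above. Beside all of these marker counts, 3.29% of all probe sets were higher and 3.53% lower with the drug.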

How the data were processed

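The deposited table holds log2 levels per probe set for 16 arrays; the scale was read from the values. How the authors corrected background, normalized and summarised is not given in the sources used. The submitters' processing notes name R 2.14.2. Arrays 2.1 and 2.2 of Pax3/Zic1 caps, of one biological number, were averaged (SD of their difference 0.183), leaving 15 samples. The 96 Affymetrix controls were left out of 32635 probe sets. Probe sets were named from GEO's platform annotation, and all 94 chosen were found by gene ID in the RefSeq table of Xenopus_laevis_v10.1.

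Group means were fitted with limma 3.58.1 (R 4.3.3, residual degrees of freedom 10, prior 2.17) and 10 contrasts tested, two-sided, with Benjamini-Hochberg adjustment over 32539 probe sets and a threshold of 0.05. The fit was tested on simulated data with independent noise for each sample. That cannot show how the fit behaves where samples pair by replicate number, as they do here. Alternatives were the replicate block, trend and robust priors, median centring, quantile normalization, only probe sets above the median level, array 2.1 or 2.2 alone, 1 probe set per gene, each sample left out, and spike-in scaling.

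Replicate numbers, given in the labels as biological replicates, paired the samples: with group means removed, the 30 same-number pairs correlated at 0.43 to 0.86 over genes, and all 15 samples correlated best with their own number. What a number stands for is not given. Genes with a named value were every probe set of the chaperones, lectins and regulators, the up to 10 greatest rises and falls that passed and the greatest difference in each role; others were named after their values were seen. The genes and lists were chosen with earlier results of these data known.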

Additional observations from a re-analysis of the deposited data

How the results depend on the processing

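Counts of ER probe sets that passed are for the cycloheximide mean of both factor sets (50), cycloheximide in Pax3 caps (18), in Pax3/Zic1 caps (30), and Pax3 caps (29) and Pax3/Zic1 caps (35) with the drug against control. With the replicate block the last 4 became 56, 62, 51 and 54, and the first 72. The block raised calls across the array too: 5.02%, 8.45%, 6.99% and 9.78% of all probe sets fell in the last 4, and 15.6% in the first. Among the ER genes and the other lists, the block changed no other call for which a gene's value is given, apart from those stated beside the genes or counted in their role. Results of the block for the cell type markers are not given here. With 1 probe set per gene 11 passed in Pax3 caps. Spike-in scaling, chosen after seeing the data, gave 39 for the mean, 19 in Pax3/Zic1 caps and 19 for Pax3 caps with the drug against control. Leaving out single samples gave ranges of 45 to 56, 2 to 26, 13 to 44, 12 to 31 and 24 to 38, and 0 to 0 in the other 5 comparisons. Signs that turned belong to differences that did not pass. creld2.S in Pax3/Zic1 caps went to -0.0416 with median centring and -0.0346 with quantile normalization and ranged from -0.1159 to 0.1375 with single samples left out, and its mean over factor sets went to 0.1134 with spike-in scaling. atf6.S in Pax3/Zic1 caps went to 0.0988 with spike-in scaling and ranged from -0.6543 to 0.2212 with single samples left out. sesn2.L in Pax3 caps ranged from -0.0247 to 0.4231 with single samples left out. Over all 94, the cycloheximide mean of 12 probe sets turned above 0 with spike-in scaling, those of creld2.S, edem3.L, ostc.S, pdia2.L, sec11a.L (both), sec11c.S (Xl2.11150.1.S1_at), spcs3.L, srp14.S, srp9.L and stt3b.S (Xl2.7642.1.S1_at and Xl2.7642.2.A1_at), and 1 of edem1.L (Xl2.3947.2.S1_at) turned below 0 with median centring and with quantile normalization. The cause was not tested. Fits without a sample have fewer degrees of freedom. With 3 samples per group, a difference that did not pass is not shown to be absent. Near the arrays' floor lie pdia2.L, sec61g.S and edem1.L (Xl2.53315.1.S1_at) throughout, and ddit3.L without the drug. With the drug, ostc.L (Xl2.53498.1.A1_at) and 2 probe sets of ssr4.S lie there too, as do some samples of ostc.L at Xl2.53498.2.S1_at.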
